A study of Mus musculus with 6 samples.

Results

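The regions described here are the broad H3K9me3 peaks on chromosomes 1 to 19 of Bergmann glia (BG), astroglia of the cerebellum whose radial fibres guide migrating granule cells. They were chosen by their width in the deposited list of WT-specific peaks, which by the study's definition are missing in Setdb1 mutant BG, as those with an end minus start above 1000 bp. Of 34673 peaks in the list, 32819 lay on these autosomes and 872 of these were broad, which is 2.66% of the autosomal peaks. They were compared with the 25374 autosomal peaks of 500 bp, the smallest and most common width. A further 6573 peaks were wider than 500 and up to 1000 bp. The list came from 6 libraries of C57BL/6 mice at postnatal day 10 (P10), 2 from WT BG, 2 from mutant BG (MT in the labels) and 2 controls whose labels name both input and IgG. Per the study's methods, mutant mice carried floxed Setdb1 alleles and mGFAP-Cre, which also acts in other cells of the cerebellum, granule cells among them. BG were isolated by sorting cells with a fluorescent reporter, for which the study used Nes-GFP mice at this age, and the labels of these libraries name no reporter. Whether libraries of a genotype came from separate animals is not given in the labels. The libraries are merged in the list, which holds no value per library, so replicate error and depth are unknown and the genotypes could not be compared. The label in the heading of the list leaves the background of the peak call unclear. These 6 libraries hold no expression values, so the cell type was not checked here against its markers. Intervals below are 95% intervals (Wilson for a share, Newcombe for a difference of shares) and cover counting error only.

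The enzyme Setdb1 adds methyl groups to lysine 9 of histone H3, and chromatin with the trimethylated form, H3K9me3, is mostly silent. In mammals the mark is best known for silencing endogenous retroviruses, where zinc finger proteins of the KRAB type bind the DNA and recruit Trim28 and Setdb1. An intact endogenous retrovirus, or provirus, has an internal part with the viral genes between a pair of long terminal repeats, and recombination between these often leaves a single long terminal repeat behind. In repeat annotation the names of internal parts end in "int". ERVK, ERV1, ERVL and ERVL-MaLR are families of such elements, IAP elements are active mouse members of ERVK, and L1 (LINE) and B1, B2 and B4 (SINE) are retrotransposons without long terminal repeats.

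The sequences below show what lies at the centre of broad peaks. For each of the 5 repeats most often found there, and for peaks with no repeat, the 200 central bases of the peak with the highest score are given, with the second highest for IAPEz-int, which belongs to the IAP elements. No repeat here and below means that the annotation names none at the centre. They are read from the forward strand of RefSeq GRCm38.p6 (mm10), and capitals mark CG, the pair of bases that DNA methyltransferases modify. The IAPEz-int sequences are from chr13:88775022-88775221 and chr13:33443373-33443572, with 5 and 2 CG pairs. MERVL-int is from chr7:44160155-44160354 (2 pairs), RLTR10-int from chr1:8028247-8028446 (6 pairs), IAPEY3-int from chr16:17445989-17446188 (6 pairs) and MMERVK10C-int from chr5:15056030-15056229 (1 pair). The peak with no repeat is from chr5:137151151-137151350 (1 pair). The sequence labelled Peg10 promoter, chr6:4748054-4748253, is added for its 17 CG pairs and was chosen after its values were seen. The authors class its peak as a promoter, but its centre lies 0.847 kb downstream of the transcription start site of the imprinted gene Peg10. The label gives the nearest gene, and whether the promoter is that of Peg10 was not checked.
IAPEz-int, highest score: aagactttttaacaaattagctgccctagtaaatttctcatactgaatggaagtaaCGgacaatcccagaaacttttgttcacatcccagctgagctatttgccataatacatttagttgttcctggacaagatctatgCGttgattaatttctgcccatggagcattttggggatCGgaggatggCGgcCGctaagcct
IAPEz-int, second highest: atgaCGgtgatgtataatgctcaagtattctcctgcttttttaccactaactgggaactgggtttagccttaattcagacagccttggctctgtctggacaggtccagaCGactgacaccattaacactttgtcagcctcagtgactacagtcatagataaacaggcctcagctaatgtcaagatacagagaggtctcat
MERVL-int: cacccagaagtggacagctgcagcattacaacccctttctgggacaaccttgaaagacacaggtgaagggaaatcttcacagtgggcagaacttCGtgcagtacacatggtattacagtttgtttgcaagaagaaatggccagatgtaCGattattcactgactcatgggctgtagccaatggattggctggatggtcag
RLTR10-int: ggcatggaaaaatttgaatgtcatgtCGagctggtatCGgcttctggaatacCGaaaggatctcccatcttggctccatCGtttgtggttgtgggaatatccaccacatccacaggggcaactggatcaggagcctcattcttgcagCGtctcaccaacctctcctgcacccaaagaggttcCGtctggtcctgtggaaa
IAPEY3-int: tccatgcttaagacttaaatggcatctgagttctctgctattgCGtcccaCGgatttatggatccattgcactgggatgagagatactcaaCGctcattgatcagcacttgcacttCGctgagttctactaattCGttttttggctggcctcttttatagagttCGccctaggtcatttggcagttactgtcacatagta
MMERVK10C-int: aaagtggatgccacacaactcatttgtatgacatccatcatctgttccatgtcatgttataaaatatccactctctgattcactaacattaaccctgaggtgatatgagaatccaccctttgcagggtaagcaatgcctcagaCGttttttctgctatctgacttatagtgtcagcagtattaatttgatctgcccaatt
No repeat: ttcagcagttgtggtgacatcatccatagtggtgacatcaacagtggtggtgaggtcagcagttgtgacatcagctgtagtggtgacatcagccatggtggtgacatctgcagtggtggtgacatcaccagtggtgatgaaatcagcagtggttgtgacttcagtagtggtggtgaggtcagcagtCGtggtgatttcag
Peg10 promoter: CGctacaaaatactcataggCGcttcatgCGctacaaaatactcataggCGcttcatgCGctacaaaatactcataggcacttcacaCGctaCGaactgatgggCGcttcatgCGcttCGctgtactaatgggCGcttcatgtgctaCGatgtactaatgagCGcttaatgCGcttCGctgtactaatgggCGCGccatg

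Widths of the broad peaks ran from 1001 to 14246 bp with a median of 1286 bp, and 652 of 872 were 1500 bp or less. Only 46 exceeded 2000 bp and 6 exceeded 3000 bp. Together they covered 1213 kb, or 6.56% of the bases in autosomal peaks. Their scores ran from 11.2 to 784 with a median of 17.7, against a median of 6.42 (4.49 to 64.5) for 500 bp peaks. Per kb of peak the medians lay closer, at 13.8 for broad peaks and 12.8 for 500 bp peaks. Width chose the peaks and the score came from the same call, so these values only describe them. No more than 576 of the 500 bp peaks (2.27%) had a score of 11.2 or more, the lowest score of broad peaks. They serve below as a second comparison, which was added after the data were seen. These high-scoring 500 bp peaks are not matched to broad peaks in score. Their median score was 12.5, below the 17.7 of broad peaks. Per kb of peak they scored at least 22.4, above the upper quartile of broad peaks (16.3). On either side of the threshold the peaks looked alike in score. The 5 narrowest broad peaks, of 1001 to 1006 bp, scored 12.2 to 17.7 and lay nearest to Parvg, Skor1, Mfap2, Fzd10 and Gfod1. The 5 peaks just outside, of 999 and 1000 bp, scored 12.8 to 18.6 and lay nearest to Rprl1, Tbcel, Sema6d, Alox5ap and Tubb3.

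**Figure D1:**
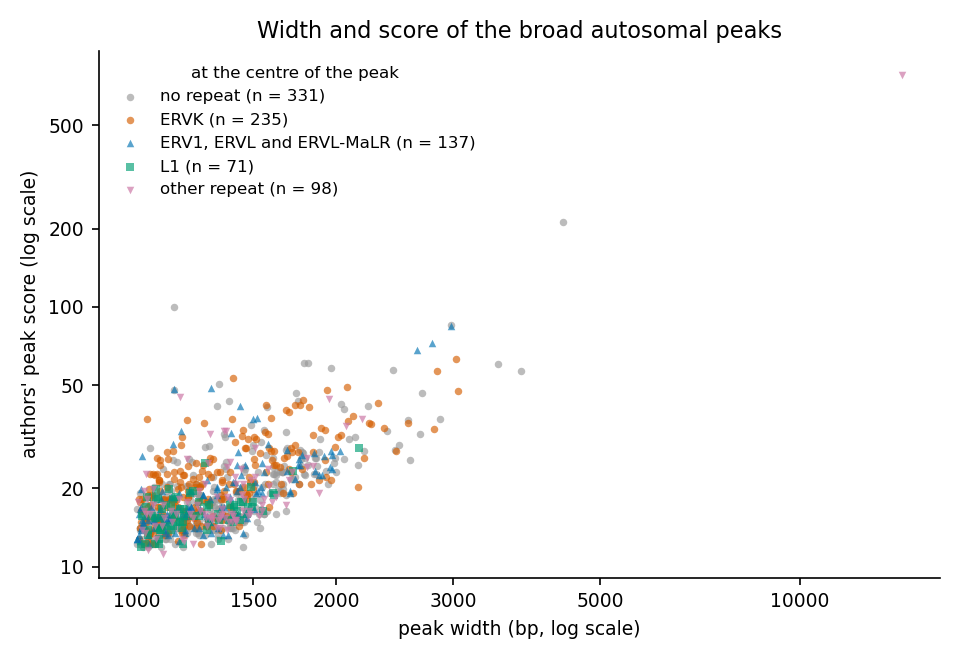
Width (bp, log scale, x axis) and the authors' score (log scale, y axis) of the 872 broad autosomal peaks, 1 point for each peak, with shape and colour for the repeat at its centre. Most points lie between 1001 and 2000 bp with scores under 50, and a single peak of 14246 bp with a score of 784 stands apart.

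Broad peaks were centred on the internal parts of proviruses far more often than 500 bp peaks. An internal part lay at the centre of 233 broad peaks (26.7%, 23.9 to 29.8%) and of 1518 peaks of 500 bp (5.98%, 5.70 to 6.28%). The difference was 20.7 percentage points (17.9 to 23.8), and the share was higher in broad peaks on 19 of 19 chromosomes. Most of these were ERVK, whose internal parts held 175 broad peaks (20.1%, 17.5 to 22.9%) against 3.11% (2.90 to 3.33%) of 500 bp peaks. The long terminal repeats of ERVK held 60 broad peaks (6.88%, 5.38 to 8.76%) and 7.39% of 500 bp peaks, a difference whose interval of -2.04 to 1.39 points includes 0. ERVK as a whole had 26.9% of broad peaks and 10.5% of 500 bp peaks, a difference of 16.5 points (13.6 to 19.5). IAP elements alone held 107 broad peaks (12.3%, 10.3 to 14.6%) against 2.54%.

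Score and width moved together, and so did the ERVK difference. The part of the score in it was not tested. Of the 576 peaks of 500 bp that scored at least as high as the lowest broad peak, 26.7% were centred on ERVK. The difference from broad peaks was 0.213 points (-4.50 to 4.81). Within ERVK, however, the portion of the element at the centre differed between the sets. How far the width of a peak itself sets which portion lies at its centre was not tested. Internal parts of ERVK were at the centre of 20.1% of broad peaks and 12.3% (9.89 to 15.3%) of these high-scoring 500 bp peaks, 7.74 points apart (3.87 to 11.4). Long terminal repeats of ERVK went the other way, with 6.88% against 14.4% (11.8 to 17.5%), a difference of -7.53 points (-11.0 to -4.30). For internal parts of all families the difference was still 11.1 points (6.83 to 15.2). IAP elements did not differ beyond counting error in this comparison, with 12.3% and 13.9%.

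**Figure D2:**
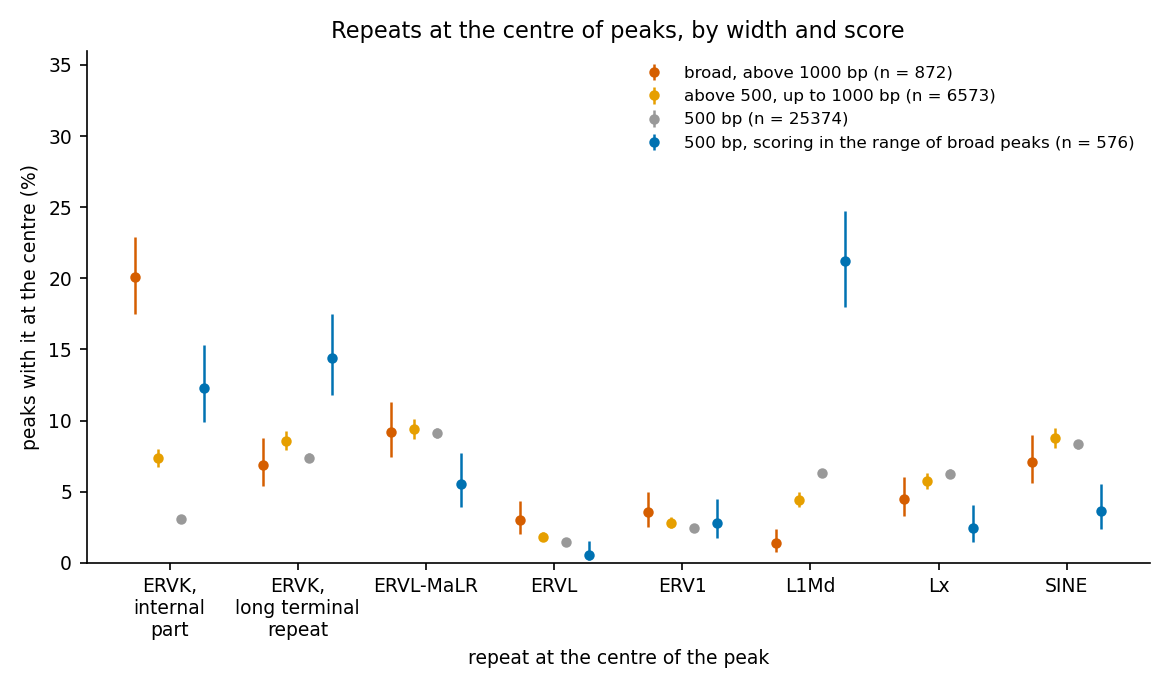
Share of peaks (%, y axis) with each kind of repeat at the centre (x axis) in broad peaks, peaks above 500 and up to 1000 bp, all 500 bp peaks and the 500 bp peaks with a score of 11.2 or more, with 95% Wilson intervals as bars. ERVK internal parts are highest in broad peaks at 20.1%, while L1Md is at 1.38% in broad peaks and 21.2% in high-scoring 500 bp peaks.

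L1 elements were less frequent in broad peaks. They lay at the centre of 71 broad peaks (8.14%, 6.51 to 10.1%) and of 16.5% (16.1 to 17.0%) of 500 bp peaks, a difference of -8.38 points (-10.1 to -6.32), and the share was lower in broad peaks on 17 of 19 chromosomes. The gap was widest for L1Md, the youngest mouse L1 group, with 12 broad peaks (1.38%, 0.789 to 2.39%) against 6.31% of 500 bp peaks, lower on 19 of 19 chromosomes. L1Md reached 21.2% (18 to 24.7%) of the high-scoring 500 bp peaks, a difference of -19.8 points for broad peaks (-23.4 to -16.5). The older Lx group of L1 held 39 broad peaks (4.47%) against 6.28% (difference -3.03 to -0.200 points), and its order turned around against high-scoring 500 bp peaks, of which it held 2.43% (0.0455 to 3.90 points).

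The other families differed less. ERVL held 26 broad peaks (2.98%, 2.04 to 4.33%) against 1.45% of 500 bp peaks and 0.521% of high-scoring ones, with 1.53 points (0.580 to 2.89) between broad and all 500 bp peaks. ERV1 held 31 broad peaks (3.56%) against 2.42%, 1.14 points higher (0.0775 to 2.59) on 12 of 19 chromosomes, and the interval against high-scoring 500 bp peaks (2.78%) was -1.20 to 2.57 points. ERVL-MaLR, the nonautonomous MT and ORR1 elements, held 80 broad peaks or 9.17% against 9.15% of 500 bp peaks, with an interval of the difference from -1.75 to 2.16 points. Against high-scoring 500 bp peaks it was higher by 3.62 points (0.827 to 6.25). SINE elements held 62 broad peaks (7.11%) and 8.32% of 500 bp peaks, a difference that did not pass counting error (-2.78 to 0.716 points) and turned to 3.46 points higher (1.06 to 5.74) against high-scoring ones. Simple repeats held 16 broad peaks (1.83%) against 0.839%, 0.995 points higher (0.283 to 2.13), and 1.91% of the high-scoring ones. LTR elements of all families made up 42.7% of broad peaks and 23.6% of 500 bp peaks, a difference of 19.1 points (15.8 to 22.4) on 19 of 19 chromosomes, and 7.07 points (1.93 to 12.1) against high-scoring ones.

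The repeat at the centre changed along the width. How far width itself sets which part of an element lies there was not tested. Internal parts went from 5.98% of 500 bp peaks to 16.1% (14.5 to 17.8%) at 751 to 1000 bp, 25.1% and 22.8% in the next classes up to 1500 bp, 32.2% (25.7 to 39.4%) at 1501 to 2000 bp and 41.3% (28.3 to 55.7%, 19 of 46 peaks) above 2000 bp. L1 went from 16.5% to 10.6% at 751 to 1000 bp and to 2.30% (0.898 to 5.76%) at 1501 to 2000 bp. The median score also climbed over these classes, from 6.42 to 11.9 at 751 to 1000 bp and to 36.1 above 2000 bp, so width and score cannot be told apart here. Of the 46 broad peaks above 2000 bp, 0 were centred on ERVL-MaLR, which allows a share of up to 7.71% (Wilson).

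**Figure D3:**
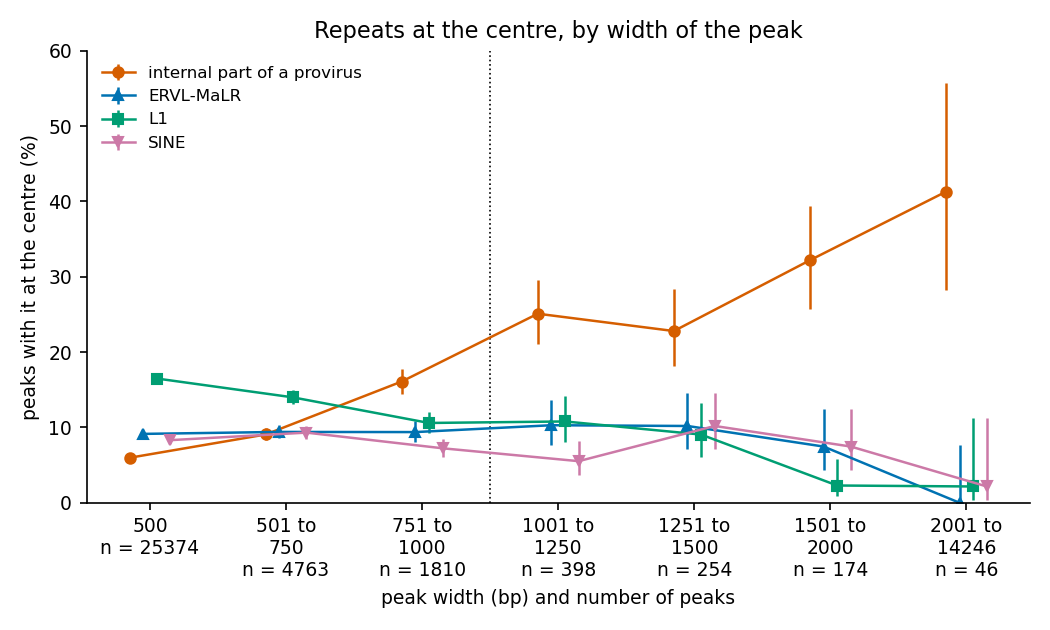
Share of autosomal peaks (%, y axis) centred on the internal part of a provirus, ERVL-MaLR, L1 or SINE by width class (bp, x axis, with the number of peaks), with 95% Wilson intervals as bars and a dotted line at 1000 bp. Internal parts go from 5.98% at 500 bp to 41.3% above 2000 bp, and L1 from 16.5% to 2.17%.

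By name, 203 repeats were found at the centre of broad peaks, 110 of them only 1 time and 6 of them 10 times or more. IAPEz-int was the most frequent with 71 broad peaks on 18 chromosomes, which is 11.4% (9.15 to 14.2%) of its 622 autosomal peaks against 2.66% for all autosomal peaks. RLTR44-int had the largest broad share of those 6 names, 10 of 26 peaks (38.5%, 22.4 to 57.5%), and only 3 of its peaks were 500 bp wide. IAPEY3-int followed with 15 of 59 (25.4%, 16.1 to 37.8%) and RLTR10-int with 20 of 103 (19.4%, 12.9 to 28.1%). MERVL-int, the internal part of the ERVL provirus that is active in the early mouse embryo, had 21 of 222 (9.46%, 6.27 to 14.0%) and the largest median width of these names at 1539 bp. MMERVK10C-int had 14 of 177 (7.91%, 4.77 to 12.8%). The intervals of RLTR44-int, IAPEY3-int and RLTR10-int overlap, so their order is not fixed by these counts. Among the next names, IAP-d-int had 8 of 29, RLTR10C, a long terminal repeat, 9 of 153, and MTA_Mm-int, an ERVL-MaLR element, 9 of 187. B3, a SINE of the B2 family, had 7 of 448 (1.56%, 0.759 to 3.19%), an interval that holds 2.66%.

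**Figure D4:**
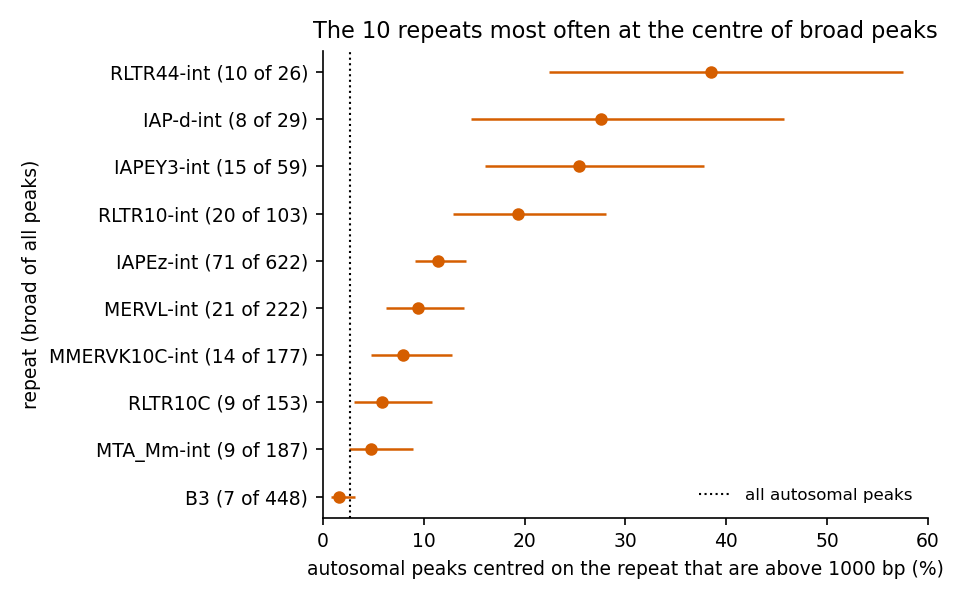
Share of the autosomal peaks centred on a repeat that are above 1000 bp (%, x axis) for the 10 repeats most often at the centre of broad peaks (y axis, with the number of broad and of all peaks), with 95% Wilson intervals as bars and a dotted line at 2.66%, the share over all autosomal peaks. RLTR44-int is highest at 38.5% and B3 lowest at 1.56%.

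The widest IAPEz-int peak, chr13:88773594-88776649 (3055 bp, score 47.5), lay 46.4 kb upstream of Edil3, which encodes a secreted matrix protein. The widest RLTR44-int peak, chr1:55296053-55298367, spanned 2314 bp with a score of 42.7 near Mars2. The widest RLTR10-int peak, chr1:8027310-8029383, spanned 2073 bp, scored 49.1 and lay 939 kb from Pcmtd1. The widest IAPEY3-int peak, chr16:3797948-3799960, spanned 2012 bp near the olfactory receptor gene Olfr15. The widest MERVL-int peak, chr7:44159239-44161269, spanned 2030 bp near the kallikrein gene Klk1b16. The 31 broad peaks on ERV1 had a median score of 23.4, against 20.9 on ERVK. Some were high, among them the MMERGLN-int peaks of 2983 bp (score 84.4, chr4:75069429-75072412, 207 kb from Dmac1) and 2787 bp (score 72.5, chr6:7722813-7725600, near Asns).

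Copies of an element share sequence, and reads from them can match several places, of which the authors kept 1. The 150 central bases were found in more than 1 place of the genome for 154 broad peaks (17.7%, 15.3 to 20.3%) and for 7.09% (6.78 to 7.41%) of 500 bp peaks, 10.6 points apart (8.16 to 13.3) and higher on 19 of 19 chromosomes. Against high-scoring 500 bp peaks, of which 27.1% had such a centre, the difference turned to -9.42 points (-13.9 to -5.04). Among broad peaks the share was 34.9% (29.1 to 41.2%) on ERVK, 76.9% on ERVL, 18.3% on L1 and 7.25% with no repeat. It was high for IAPEz-int (57 of 71 peaks, median of 25 places) and MERVL-int (20 of 21, median of 196 places). RLTR44-int, IAPEY3-int and IAP-d-int had no such centre among 10, 15 and 8 peaks. The part of read placement in the widths was not tested.

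Broad peaks of 1 repeat name also shared sequence, which follows from being copies of 1 element. No such count was made for 500 bp peaks. Of the 71 IAPEz-int peaks, 71 shared a run of at least 31 identical bases with another broad IAPEz-int peak, the median peak with 51 of them, and 45 held the same single run. All 21 MERVL-int peaks and all 20 RLTR10-int peaks had such a partner. For IAPEY3-int it was 14 of 15, for RLTR44-int 9 of 10 and for B3 4 of 7. Of the 331 broad peaks with no repeat at the centre, 94 (28.4%, 23.8 to 33.5%) shared a run with another of them. These peaks are therefore not independent regions, and the intervals are too narrow to that extent.

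Broad peaks were lower in GC and alike in CG pairs at the centre. The median GC content of the central 500 bp was 46.8% (quartiles 44.0 and 49.8%) against 49.4% (46.6 and 52.0%), lower on 19 of 19 chromosomes. The median was 12 CG pairs per kb in both, and 22.0 in the high-scoring 500 bp peaks. Among the 10 repeats most often at the centre, CG pairs were densest on RLTR10-int (median of 22.0 per kb in the central 500 bp) and IAPEz-int (20). The medians over broad peaks on L1 and ERVL-MaLR were 6.0 and 8.0 per kb. Lower-case (soft-masked) bases, which RefSeq uses for repeats, made up a mean of 47.9% of the sequence just left of the centre of broad peaks and 37.0% for 500 bp peaks. The share fell outward over several kb on both sides of broad peaks, to 37.5% and 35.6% at both ends of the profile near 5 kb, where 500 bp peaks had 33.8% and 33.9%.

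**Figure D5:**
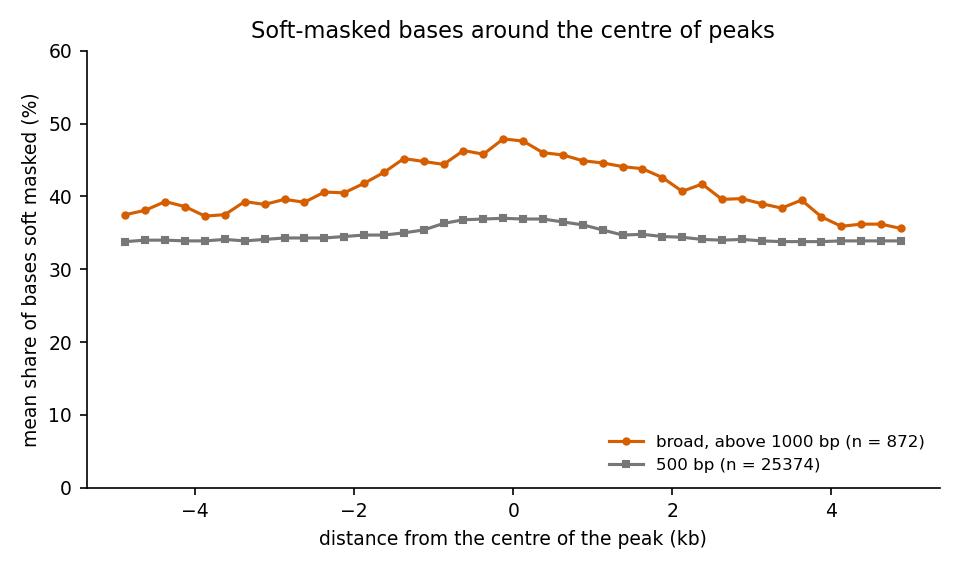
Mean share of soft-masked bases (%, y axis) in bins of 250 bp by distance from the centre of the peak (kb, x axis) for 872 broad and 25374 peaks of 500 bp. Broad peaks reach 47.9% at the centre and 500 bp peaks 37.0%.

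A repeat lay at the centre of 541 broad peaks (62.0%, 58.8 to 65.2%) against 51.6% of 500 bp peaks, and of 71.4% of the high-scoring ones. The other 331 broad peaks had none named there. Peaks annotated to a promoter, exon or transcript end never carried a repeat name, so repeats at their centres are not counted. Some of the widest and highest-scoring regions hold repeated short runs. Others hold almost none, such as the peaks nearest to Pcdhga3, Asns and Dmac1 (0.269%, 0.072% and 0.269% of runs of 12 bases repeated). The widest peak of all, chr17:3005755-3020001 (14246 bp, score 784), was centred on a simple repeat, 71.3 kb from the pseudogene Pisd-ps2, and 68.6% of its runs of 12 bases occurred more than 1 time. The next, chr5:137149051-137153450 (4399 bp, score 212), overlapped Muc3 in RefSeq, a mucin gene with tandem repeats in its coding sequence, though the authors' list names Trim56, 35.0 kb away, and calls it intergenic. In it, 65.7% of the runs were repeated and the most frequent occurred 62 times, a repetition also visible in its sequence above. The peak chr19:24912237-24916041 near Foxd4 (3804 bp, 95.6% of runs repeated, no CG pair) and the peak chr15:8518353-8520141 near Nipbl (1788 bp, score 61.0, 93.9%), neither with a named repeat at the centre, were alike in this. In the central 500 bp, a measure chosen after these peaks were seen, 41 broad peaks (4.70%, 3.48 to 6.32%) had 25% or more of their runs repeated, against 1.60% (1.45 to 1.76%) of 500 bp peaks and 8.85% (6.8 to 11.5%) of the high-scoring ones.

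By the authors' annotation, 533 broad peaks (61.1%, 57.8 to 64.3%) were intergenic and 295 (33.8%) intronic, against 57.5% and 35.9% of 500 bp peaks. The intergenic difference of 3.60 points (0.271 to 6.84) was higher on no more than 11 of 19 chromosomes and turned to -3.98 points (-8.98 to 1.11) against high-scoring 500 bp peaks. Leaving out 1 chromosome could also bring it to 2.57 points (-0.859 to 5.91). Exons held 12 broad peaks (1.38%, 0.789 to 2.39%), against 3.02% of 500 bp peaks, a difference of -1.64 points (-2.27 to -0.609). Promoters held 9 (1.03%) against 0.796%. A CpG island was at the centre of 0 of 872 broad peaks, which allows up to 0.439% (Wilson). It was at the centre of 5 of the 500 bp peaks (0.0197%), so the count of 0 does not set broad peaks apart. The median distance to the nearest transcription start site (TSS) was 36.2 kb for broad peaks and 36.3 kb for 500 bp peaks. Broad peaks had neighbours more often, since 45.6% (42.4 to 49.0%) had another listed peak within 10 kb against 33.8% (33.2 to 34.3%), 11.9 points apart (8.55 to 15.2) and on 19 of 19 chromosomes.

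Few broad peaks lay at the start of a gene. Of the 9 classed as promoters, the peak nearest to Peg10 (chr6:4747464-4748843, 1379 bp, score 43.6) had 74.6 CG pairs per kb, the most of any broad peak. Peg10 is an imprinted gene derived from a retrotransposon. The centre of the peak lay 0.847 kb downstream of the Peg10 TSS. The annotation names a transcript for the promoter class, and whether this belongs to Peg10 or to another gene was not checked. The others of the 9 lay nearest to Cyp21a1 (score 32.4), a steroid hydroxylase gene, Psg28, Slc22a13, Gm8016, Mir6338, Bckdhb, 1700092E19Rik and Olfr390. At Bckdhb, which encodes a subunit of a branched-chain keto acid dehydrogenase, the centre was found in 352 places of the genome. No repeat was named for this peak, yet 100% of it was soft masked. Counting all exon classes, 22 broad peaks without a named repeat were centred on an exon, and the host transcript was found in RefSeq for all 22. In 13 of 22 this was the last exon (59.1%, 38.7 to 76.7%), against 46.5% of 1113 such peaks of 500 bp, and the interval of the difference was -7.93 to 30.5 points. Genes named Zfp hosted 2 of them (9.09%), the last exons of Zfp286 (1604 bp, score 26.3) and Zfp2 (1664 bp, score 20.9), against 3.41% of the 500 bp peaks (difference -1.0 to 24.4 points). That count leaves out BC025920, Gm6815 and 4930529C04Rik, hosts described as pseudogenes of zinc finger genes. The 500 bp peaks were counted by the same names, and such pseudogene hosts among them were not looked up. Other hosts were the large muscle gene Ttn (exon 297 of 313), Slc26a8, Klhl25, Lrrc4c, Filip1 and Pfkl.

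The broad peak in the clustered protocadherins was one of the widest. Clustered protocadherins are neuronal adhesion proteins whose variable first exons are chosen promoter by promoter. The peak at the first of 4 exons of Pcdhga3 on chromosome 18, chr18:37674001-37676981, spanned 2980 bp with a score of 85.0 and lay 1.16 kb from the TSS. It was the only peak of the list at this gene, and the only broad peak nearest to any of 58 clustered protocadherin genes. The family was nearest to 0.115% of broad peaks and 0.0512% of 500 bp peaks (difference -0.0378 to 0.596 points).

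Broad peaks had 802 nearest genes, out of 12475 genes nearest to any autosomal peak. Of the 802, 744 had 1 broad peak, 48 had 2 and 10 had 3 or more. The genes with most, 4 each, were 2410018L13Rik and 1700030C10Rik on chromosome 12, at distances of 109 to 420 kb and 52.5 to 918 kb from the TSS, so assignment to these genes is by nearness alone. Camta1, which encodes a calmodulin-binding transcription activator, had 3, each annotated as intronic. Kazn, a gene of the cell junction protein kazrin, had 3, from 2.75 to 385 kb away. Gatsl2, A930031H19Rik, Olfr161, Zfp808, Zfp781 and Obox2, an oocyte homeobox gene, also had 3. At Zfp781, all 3 were centred on ORR1A4-int in introns, with scores of at most 16.0. For the gene lists that follow, the share of all annotated genes with a 500 bp peak was not counted. Counts of genes in a list therefore only describe it. Of genes nearest to any autosomal peak, 802 of 12475 had a broad one.

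Zfp genes, which encode zinc finger proteins, were the nearest gene of 31 broad peaks (3.56%, 2.52 to 5.00%) and of 1.92% (1.75 to 2.09%) of 500 bp peaks, 1.64 points apart (0.585 to 3.10). The share was higher in broad peaks on only 9 of 19 chromosomes, the difference was 0.459 points (-0.458 to 2.14) without peaks that had a neighbour within 10 kb, and 4.86% of high-scoring 500 bp peaks lay nearest to a Zfp gene. Of 406 autosomal Zfp genes, 216 had a peak of any width, 25 (6.16%) had a broad peak and 189 had one of 500 bp. Zfp808 and Zfp781 had 3 and Zfp326, with the widest of 1845 bp, had 2. Vomeronasal receptor genes had 18 broad peaks at 17 of 623 genes (2.06% against 1.33% of 500 bp peaks, difference -0.0329 to 1.92 points), with Vmn1r160 at 2. Olfactory receptor genes had 14 at 12 of 1420 genes (1.61% against 1.17%, -0.231 to 1.51 points). At Olfr161 the peak of 1139 bp at chr16:3231627-3232766 scored 100, though 360 kb from the TSS.

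Imprinted genes, expressed from 1 parental copy, had 6 broad peaks at 6 of 45 genes, namely Cdkn1c, Dio3, Gnas, Peg10, Slc38a4 and Ube3a. That was 0.688% of broad peaks against 0.303% of 500 bp peaks, 0.385 points higher (0.00466 to 1.19), and 0.347% of the high-scoring ones. The peak nearest to Dio3, a thyroid hormone deiodinase gene, was on RLTR10-int (1560 bp, score 33.1, 27.3 kb away), and that nearest to Ube3a, a ubiquitin ligase gene, on IAP-d-int (1451 bp, 142 kb away). Of 34 germline genes, 18 had a peak of any width, 16 a 500 bp peak and 2 a broad one, Tdrd1 (2032 bp, intron, score 42.4) and Dazl (1076 bp). They made up 0.229% of broad peaks against 0.146% of 500 bp peaks (difference -0.0918 to 0.688 points). microRNA genes had 20 broad peaks at 19 of 1103 genes (2.29% against 3.21%, -1.75 to 0.326 points). Predicted genes with Gm and Rik names had 168 (19.3% against 17.7%, -0.978 to 4.34 points).

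In the list of BG and astroglia genes, 25 of 37 had a peak of any width, 3 had a broad peak and 19 had one of 500 bp. They were the nearest genes of 0.344% of broad peaks and 0.181% of 500 bp peaks, a difference whose interval of -0.0721 to 0.827 points includes 0. Hopx, a BG marker, had its only peak of the list 17.3 kb from the TSS at chr5:77076841-77079008 (2167 bp, score 28.6), centred on L1MB8, an old L1 element. Mlc1, an astrocyte membrane protein gene, also had a broad peak as its only one, in an intron 2.98 kb from the TSS (1680 bp, score 33.1). The 150 central bases of the Mlc1 peak were found in 5 places of the genome. Hes1, a Notch target that maintains radial glia, had one of 1545 bp, 93.5 kb away. Of 106 ECM-receptor and collagen genes, 77 had a peak of any width, 69 a 500 bp peak and 2 a broad one. They were Reln, the glycoprotein that guides neuronal migration (1226 bp on IAPEz-int in an intron, score 17.0), and Col26a1 (1244 bp, score 18.6). These made up 0.229% of broad peaks against 0.579% of 500 bp peaks, with a difference of -0.545 to 0.259 points. In a list of 21 autosomal genes of H3K9 methylation and associated silencing, which also holds DNA methyltransferases, 1 had a broad peak, the DNA methyltransferase gene Dnmt3a (1404 bp, 2.10 kb from the TSS). The list was nearest to 0.115% of broad peaks and 0.0434% of 500 bp peaks (difference -0.0291 to 0.604 points). Setdb1, Trim28, Nes, Gfap, Fabp7, Sox2, Sox9 and Acsbg1 were the nearest gene of no autosomal peak of any width. Col18a1 had 6 narrower autosomal peaks and Nfix and Rlbp1 1 each, but none of these genes had a broad one. For genes with a peak that is common, since only 802 of 12475 genes nearest to an autosomal peak had a broad one.

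Along the chromosomes, broad peaks numbered 0.200 per Mb on chromosome 3 to 0.571 per Mb on chromosome 7, with a median of 0.332. They made up 1.96% (1.39 to 2.76%) of the peaks of chromosome 3, the lowest share, and 3.26% (2.63 to 4.04%) of those of chromosome 5, the highest, and the intervals of all 19 chromosomes hold 2.66%. Of 2473 windows of 1 Mb, 647 held a broad peak, 481 of them 1, and 14 held 4 or more. The window from 22 to 23 Mb of chromosome 12 had 6 of 53 peaks (11.3%), the window from 81 to 82 Mb of chromosome 10, with Zfp781 and Zfp433, 5 of 43, and the window from 3 to 4 Mb of chromosome 16, with Olfr161, Olfr15 and Zfp263, 5 of 24. Within 10 kb, 4.13% (3.0 to 5.66%) of broad peaks had another broad peak and 1.44% (1.3 to 1.60%) of 500 bp peaks had a broad one.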

How the data were processed

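H3K9me3 ChIP-seq of P10 BG was used. Per the labels and the study's methods, the authors aligned reads to mm10 with Bowtie2 (2.2.8 in the submitters' processing notes), kept 1 location for a read that matches several places and 1 tag per position, and called peaks with HOMER (4.10.1). The deposited score is the authors' own, on a scale the sources used here do not give. They do not give either how libraries were merged. A peak also had to exceed its local surroundings, a step that bears on wide regions. Annotation class, central repeat and nearest TSS are as deposited, and each repeat was counted by the centre alone.

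Peaks were read with pandas 2.3.3 in Python 3.11.15. Shares were compared as differences with 95% Newcombe intervals and by chromosome, with no p-value, because peaks are not replicates. Sequence came from RefSeq GRCm38.p6, in which no autosomal peak ended beyond its chromosome. Exact copies of the central 150 bases were counted on both strands of 21 chromosomes. Intervals and copy counts were tested on simulated data. The members, the 11 gene lists and the alternatives were chosen with earlier results of these data known. Genes named are the 10 with most broad peaks, those nearest the 10 widest, the 3 with most in each list and those the study names. The repeats are the 10 most frequent and the regions the 10 widest, the 10 highest scores and the 5 on each side of 1000 bp. The text gives some of these, and features and regions beyond them were chosen after their values were seen.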

Additional observations from a re-analysis of the deposited data

How the results depend on the processing

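All values are differences in percentage points, broad minus 500 bp peaks. Of 122 alternatives to 12 results, 90 kept direction and side of 0 by the 95% interval, 14 lost and 3 gained the call, and 15 changed sign. LTR, L1 and internal parts of proviruses kept both under all of theirs. Comparisons with 500 bp peaks scoring at least the lowest broad score (576 peaks), and all alternatives for internal parts, ERVK internal parts and L1Md, were added after the data were seen. With the 576 peaks, the differences were 0.213 for ERVK, 3.62 for ERVL-MaLR, 3.46 for SINE, -9.31 for any repeat, -3.98 for intergenic, -1.31 for Zfp and -9.42 for multi-copy centres. With the 65 peaks scoring at least the broad median they were 2.33 for ERVK, 9.17 for ERVL-MaLR, 5.57 for SINE, 2.04 for any repeat, 7.28 for intergenic, -8.75 for Zfp, -16.2 for multi-copy centres and 7.76 for ERVK internal parts. For broad peaks above 1500 bp (220) they were -3.24 for ERVL-MaLR, 5.24 for any repeat and 2.03 for intergenic. Above 2000 bp (46) they were -9.15, 2.77 and 12 for these, -1.92 for Zfp and -6.31 for L1Md. Against peaks above 500 and up to 1000 bp, ERVL-MaLR gave -0.228 and intergenic 2.23. Without peaks that had a neighbour within 10 kb, ERVL-MaLR gave -1.97, intergenic 1.96 and Zfp 0.459. With all chromosomes ERVL-MaLR gave -0.506, and with 1 peak per gene SINE gave -2.14. Leaving out each chromosome in turn, the lowest values were -0.28 for ERVL-MaLR and 2.57 for intergenic. Some of the sets are smaller, and the cause of these changes was not tested. The list has no counts or libraries, so intervals cover counting of peaks only. No paired analysis was possible because the list holds no value per library.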
